A study of Homo sapiens with 3 samples.

Results

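Fatty acid synthesis was examined through 10 genes of lipogenesis in YB5 colon cancer cells exposed to decitabine, carboplatin or both drugs. The members were SCD, FASN, ACACA, ACLY, ELOVL6, FADS1, FADS2, SREBF1, MID1IP1 and ACSL3, out of 18606 genes that the array probes named. All 19 probes carrying one of these gene names were taken on each array, and 17 of them, covering 9 genes, lay outside a dim band at array columns 1 to 9. The members were selected on the pathway and on their changes on these same arrays, so their changes are descriptions here and carry no test.

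All cells were YB5, so the results describe 1 clone of the SW48 line, which was grown from a colon tumour. In all groups the genome holds an integrated GFP reporter (1 copy) whose CMV promoter is methylated and silent. Cells received 4 doses on days 1 to 4 of decitabine at 25 nM, of carboplatin at 20 µM, or of both at these concentrations, and were harvested on day 6. Control cells of the same clone received the diluent DMSO. Each treatment was measured on 1 two-colour Agilent whole genome array, and the 3 arrays lay on 1 slide. Treated RNA carried Cy3 and control RNA carried Cy5 on every array, with no dye swap, so a dye effect and a treatment effect of 1 probe cannot be told apart. Each treatment had 1 sample, so no difference between treatments has a replicate check. Whether the 3 control channels held the same RNA extract is not stated in the sources used here.

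Changes are given as the log2 ratio of treated to control signal after background correction and loess normalisation, and a gene is said to have fallen or risen where the change reached 1.5-fold. The error used for a change was the spread among spots of the same probe on 1 array. Pooled over 264 probes spotted 10 times each, this SD was 0.08 on the decitabine-labelled array, 0.07 on the carboplatin-labelled array and 0.08 on the array of both drugs, called the combination array. It covers spotting and hybridisation on that array and no variation between cultures. Each member probe was a single spot.

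The arrays had signals well above background in the control channel for 69.0%, 70.3% and 68.2% of gene spots, in the order decitabine, carboplatin and both drugs. The decitabine-labelled array had a dim Cy5 band at columns 1 to 9, which held 10.1% of its spots. Control signals there lay 0.90 below those of the other arrays on the log2 scale, and the median change there was 0.75. Gene lists published for carboplatin, which were chosen on these samples, followed another array than their name says. Of 92 genes listed as raised and measured outside the band, 54 rose on the decitabine-labelled array and 15 on the carboplatin-labelled array, and of 53 listed as lowered, 41 and 4 fell. No member is in these lists. The arrays are therefore named by their labels throughout, as the decitabine-labelled, the carboplatin-labelled and the combination array. Of the epithelial markers KRT18, KRT19, KRT8, CDH1, CDX2 and VIL1 were detected, CDX1 was not well above background on any array, KRT20 was so on the decitabine-labelled array alone, with signals of 149 and 148 in the control and treated channels, and EPCAM had probes only inside the band. Of 10 markers of other cell types, 5 had signals well above background on an array. PTPRC, PECAM1, COL1A2, COL3A1 and DES were not well above background on any array. The summed signal of the 10 markers was 1057 to 1100 in the control channels and 1155 to 1458 in the treated channels. CD68, a lysosomal glycoprotein, changed by 0.99, 0.40 and 1.53, and its part in the results was not tested.

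Cells make fatty acids from citrate. ACLY splits citrate to cytosolic acetyl-CoA, ACACA carboxylates acetyl-CoA to malonyl-CoA, and FASN builds palmitate from both. ELOVL6 lengthens palmitate to stearate, SCD introduces the double bond that turns stearate into oleate, and FADS1 and FADS2 desaturate polyunsaturated fatty acids. ACSL3 attaches coenzyme A to long-chain fatty acids. The transcription factor encoded by SREBF1 activates most of these genes from sterol regulatory elements in their promoters, usually with the CCAAT-binding factor NF-Y or with Sp1, and MID1IP1 binds acetyl-CoA carboxylase and promotes its assembly into active filaments.

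SCD carried the finding, and the first sequences shown are the shared stretch of its brightest pair of probes, because these read opposite strands. The pair overlapped by 39 bases near the end of SCD, and 30 of them are given, at chr10:102123938-102123967 on the plus strand of GRCh37, the build in the scanner file headers. All probe positions are of that build, and its exon annotation was not used here. SCD lies on the plus strand. Probe A_32_P163858 has the orientation of the SCD mRNA, and A_32_P231415 has the reverse one. The reverse complement of the latter matched the former at 38 of 39 bases, with the substitution C29G counted from the left end of the stretch. The capital marks this base.

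A_32_P163858, as spotted: gtttgctagtatcttgggtgtattctctCt
A_32_P231415, reverse complement: gtttgctagtatcttgggtgtattctctGt
A_32_P231415, as spotted: aCagagaatacacccaagatactagcaaac

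Dye was incorporated during first-strand cDNA synthesis, per the labels. Such cDNA is complementary to mRNA, so a probe in mRNA orientation is the one that binds it. What the reverse probe bound was not tested. Of 18 member probes whose gene strand was known, this was the only 1 opposite to its gene. It was also the brightest SCD probe and represents SCD in the counts, so all 4 SCD probes are described.

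Promoter stretches are shown for 3 members that fell on every array and whose RefSeq promoters (GRCh38.p14) hold a CCAAT box or a sterol regulatory element, the motifs of the factors named above. Capitals mark CCAAT and TCACNCCAC on either strand, the only forms of these motifs that were searched. Each stretch runs along its gene's strand, the plus strand in all 3. The SCD stretch, chr10:100346983-100347082, covers positions -250 to -151, counted from the start site. The MID1IP1 stretch, chrX:38801359-38801458, and the ACSL3 stretch, chr2:222860936-222861035, cover positions -100 to -1.

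SCD promoter: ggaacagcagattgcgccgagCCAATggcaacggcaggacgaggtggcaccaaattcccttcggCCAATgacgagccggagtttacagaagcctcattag
MID1IP1 promoter: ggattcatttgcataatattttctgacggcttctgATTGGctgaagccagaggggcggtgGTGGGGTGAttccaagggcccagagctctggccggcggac
ACSL3 promoter: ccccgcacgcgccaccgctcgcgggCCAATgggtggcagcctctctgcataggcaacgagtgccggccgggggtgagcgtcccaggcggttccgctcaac

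RefSeq promoters, from -250 to 50 bases past the start, were found by symbol for 9 members, 13 promoters in all, and were searched on both strands. CCAAT was in 8 of the 13 and in 34.6% of all 35116 promoters. The 8 came from 6 of the 9 members, namely SCD, ACSL3, MID1IP1, FADS2, ACACA and ACLY. The promoters of ACLY overlap, so a site that they share counts in each. The sterol regulatory element was searched only as the exact string TCACNCCAC, and other forms of it were not looked for. This string was in 1 of the 13, MID1IP1, against 1.13% of all promoters. There it lay on the minus strand at -40 to -32, close to a reversed CCAAT at -65 to -61. GGGCGG, the core of the Sp1 motif, was in 11 of the 13, from all 9 members, against 45% of all promoters. The E box CACGTG was in 0 of the 13 against 7.26% of all. In the 3 stretches shown no match overlaps another. FASN had no entry.

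SCD, the stearoyl-CoA desaturase, fell on all 3 arrays and at all 4 probes. At the brightest probe, the control signals were 18554, 17342 and 18986 scanner units on the decitabine-labelled, carboplatin-labelled and combination arrays, and the treated signals were 2931, 6299 and 2597. The control channels were alike to within 1.09-fold, and every treated channel was below every control channel. The log2 changes were -2.66, -1.46 and -2.87, or 6.33-fold, 2.75-fold and 7.31-fold lower. By this reverse-strand probe SCD ranked 2, 1 and 2 from the lowest of 13063, 13282 and 13107 genes. By A_32_P163858, the brightest probe in mRNA orientation, it ranked 2, 4 and 4, and by the dimmest probe 59, 157 and 59.

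**Figure D1:**
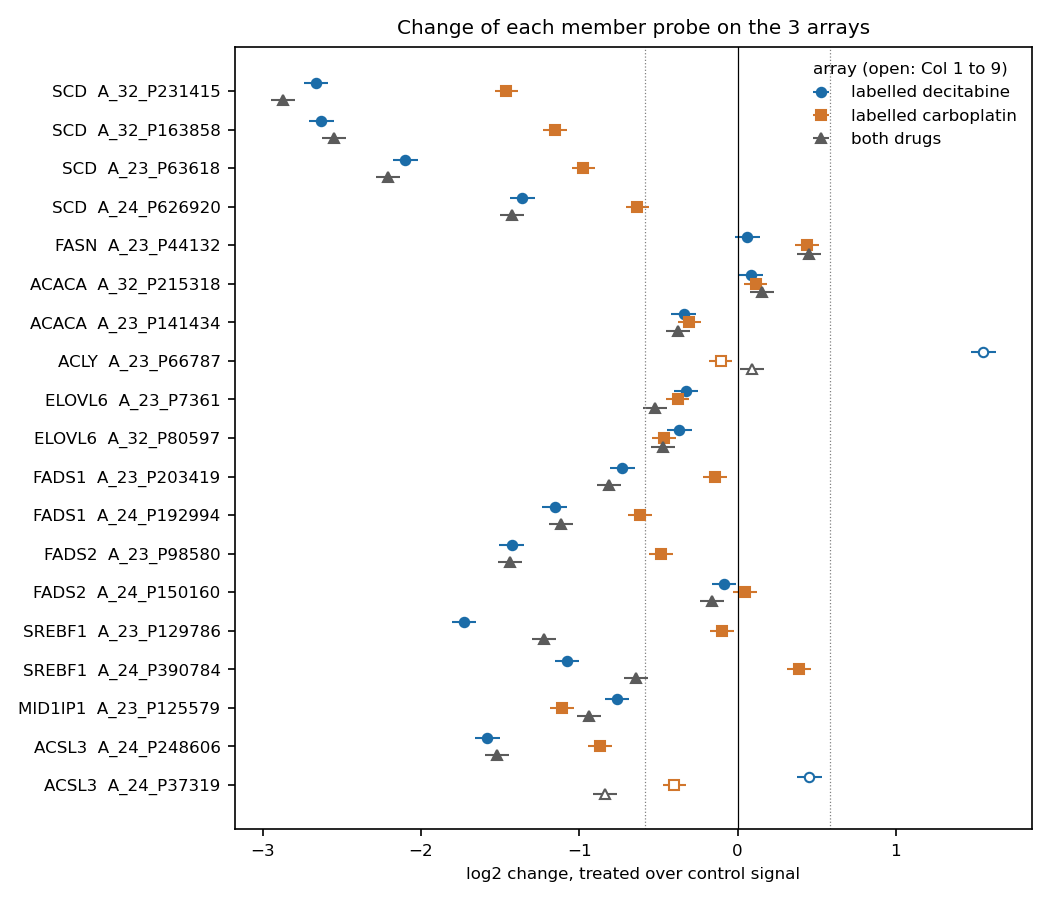
Log2 change (treated over control) of each of the 19 member probes on the 3 arrays. Bars are the pooled SD of repeated spots outside columns 1 to 9 on that array. Open symbols are probes at columns 1 to 9, drawn with the same bars, and dotted lines are 1.5-fold. All 4 SCD probes lie left of the lower line on every array, and FASN stays inside 1.5-fold.

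The 3 SCD probes in mRNA orientation also fell on every array, and least on the carboplatin-labelled array. A_32_P163858, in the overlap shown above, had control signals of 5251, 4805 and 5873 and treated signals of 848, 2159 and 1004. Its changes were -2.63, -1.15 and -2.55. A_23_P63618, at chr10:102120692-102120751, changed by -2.10, -0.97 and -2.21. A_24_P626920, the dimmest and the nearest to the start of the gene at chr10:102107950-102108009, changed by -1.36, -0.63 and -1.43. The dimmer the probe, the smaller was the decrease on each of the 3 arrays, so the size of the SCD decrease depends on the probe while its direction does not. The offset of 50 added to both channels in background correction shrinks the ratios of dim spots more. Its share in this order was not tested. Whether transcripts of different ends changed differently was not tested.

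The desaturases of polyunsaturated fatty acids also fell on the decitabine-labelled and combination arrays. For FADS2, which catalyses the first desaturation step, the control signals of the brighter probe were 1912, 1988 and 1931 and the treated signals were 710, 1420 and 714. Both low treated channels belong to the arrays with decitabine in their label. The changes were -1.43, -0.49 and -1.44, so FADS2 passed 1.5-fold on these arrays and not on the carboplatin-labelled array. The other FADS2 probe, A_24_P150160, was dim, with control signals of 92 to 107. Its treated signals on the decitabine-labelled and combination arrays were not well above background, so it allows only at least 1.06-fold and at least 1.12-fold lower.

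FADS1, which acts after FADS2, had at its brighter probe control signals of 331, 281 and 315 and treated signals of 200, 254 and 179. The changes were -0.73, -0.14 and -0.81. The other probe, A_24_P192994, changed by -1.16, -0.61 and -1.11, so the probes differ on whether FADS1 passed 1.5-fold on the carboplatin-labelled array. FADS1 and FADS2 are neighbouring genes on chromosome 11, and their brighter probes map to chr11:61569572-61569631 and chr11:61634754-61634813.

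ACSL3, the acyl-CoA synthetase of the endoplasmic reticulum and lipid droplets, fell on every array. At A_24_P248606 the control signals were 1610, 1482 and 1419 and the treated signals were 538, 811 and 494. Treated and control channels did not overlap. The changes were -1.58, -0.87 and -1.52, which ranked ACSL3 30, 26 and 46 from the lowest. Its other probe lies inside the dim band and is given further on.

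The elongase ELOVL6 changed less. Its brighter probe had control signals of 1604, 1814 and 1604 and treated signals of 1280, 1395 and 1117. The changes were -0.33, -0.38 and -0.52, all below 0 and none past 1.5-fold. The second probe gave -0.37, -0.47 and -0.47.

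FASN and ACACA, which act in making palmitate, did not fall. FASN had control signals of 789, 763 and 757 and treated signals of 823, 1032 and 1037. It changed by 0.06, 0.44 and 0.45, so its 2 higher treated signals were on the arrays that carry carboplatin in their label. On the decitabine-labelled array the FASN change was within the spot SD. ACACA, the acetyl-CoA carboxylase, had control signals of 440, 426 and 465 and treated signals of 466, 461 and 517 at A_32_P215318. It changed by 0.08, 0.11 and 0.15 there and by -0.34, -0.30 and -0.38 at A_23_P141434. Its probes thus disagree in sign on all 3 arrays, and neither passed 1.5-fold. With median centring in place of loess, FASN on the decitabine-labelled array turned to -0.39 and ACACA to -0.29, -0.16 and -0.14, all of them still above the median of all genes on that array. Over 11 alternatives the ACACA sign was kept in 7, 9 and 9.

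**Figure D2:**
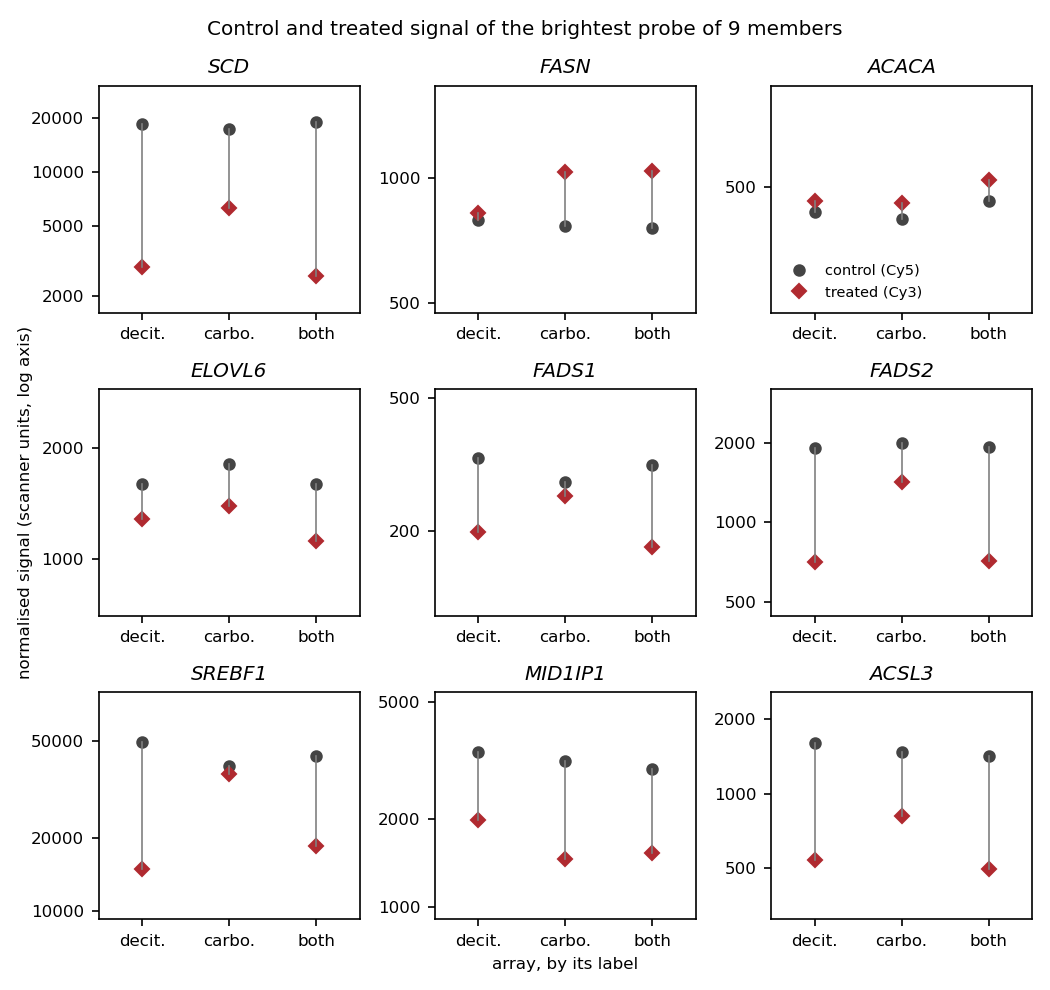
Normalised control (Cy5, grey) and treated (Cy3, red) signal of the brightest probe outside the dim band for 9 members, in scanner units on a log axis whose range differs between panels. The treated SCD signal lies furthest below its control on each array, and the FASN and ACACA signals lie close together or with the treated one higher.

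SREBF1, the transcription factor gene, had the widest gap between the single-drug arrays among the 9 representing probes. At A_23_P129786 the control signals were 49330, 39289 and 43369 and the treated signals were 14884, 36674 and 18550. No spot was saturated. The changes were -1.73, -0.10 and -1.23, so SREBF1 ranked 20 from the lowest on the decitabine-labelled array and 4668 on the carboplatin-labelled array. The second probe, A_24_P390784, changed by -1.08, 0.39 and -0.64. It was higher than control on the carboplatin-labelled array, while the brighter probe was lower by little more than the spot SD. The median over both probes there was 0.14. In the authors' deposited values the brighter probe was at -0.40 on that array. With median centring it was at -0.73, past 1.5-fold, where the median of all genes was -0.32. Both probes map to the same end of SREBF1 on chromosome 17, at chr17:17715419-17715478 and chr17:17715947-17716006.

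MID1IP1 had a different order. Its control signals were 3379, 3154 and 2954 and its treated signals were 1994, 1461 and 1539. The changes were -0.76, -1.11 and -0.94. In the main setting MID1IP1 was thus lowest on the carboplatin-labelled array, where it ranked 5 from the lowest of 13282 genes. On the other arrays it ranked 462 of 13063 and 282 of 13107. This order depends on the processing. With the scanner's processed signals the changes were -1.31, -1.15 and -1.05, so MID1IP1 was then lowest on the decitabine-labelled array. Its probe is at column 10, next to the dim band, but at row 202, where the control signals of that column were 0.02 above those of the other arrays.

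Of the 9 members with a probe outside the dim band, 6 fell at least 1.5-fold on the decitabine-labelled array, where 6.8% of 13063 genes fell and 6.52% rose. On the carboplatin-labelled array 3 of 9 fell, namely SCD, ACSL3 and MID1IP1, where 1.82% of 13282 genes fell and 3.64% rose. On the combination array 6 of 9 fell, where 7.84% of 13107 genes fell and 9.77% rose. SCD, FADS1, FADS2, SREBF1, MID1IP1 and ACSL3 made up the 6 on both arrays, and 0 members rose on any array. The median change of the members was -0.76, -0.38 and -0.94, against -0.03, -0.01 and 0.00 for all genes. Because the members were chosen by these contrasts, nothing is read from these shares. With median centring in place of loess the median of all genes shifted to -0.42, -0.32 and -0.31, the share that fell became 35%, 23.8% and 28.4%, and the share that rose became 2.24%, 2.16% and 4.84%. Relative to that shift the members' medians were -0.87, -0.50 and -1.07.

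For 7 of 9 members the change on the combination array lay within 2 SDs, from the spread of spots, of that on the decitabine-labelled array. At its reverse-strand probe the change of SCD with both drugs was 0.21 lower than with decitabine alone by its label. The SD for such a difference was 0.11. At the probes in mRNA orientation, A_32_P163858, A_23_P63618 and A_24_P626920, the differences were 0.08, -0.11 and -0.07, so the SCD probes disagree in sign. ACSL3 differed by 0.06 and FADS2 by -0.01. MID1IP1 was 0.18 lower. SREBF1 was 0.50 higher and FASN 0.39 higher with both drugs, the members past 2 of these SDs. For 0 of the 9 members was the change with both drugs 1.5-fold or more below that on the decitabine-labelled array, and 53 of 12734 genes, 0.416%, were that much lower. Against the carboplatin-labelled array 5 of 9 members were that much lower, and so were 4.64% of genes. The arrays may share control RNA, and the members were selected on these values.

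**Figure D3:**
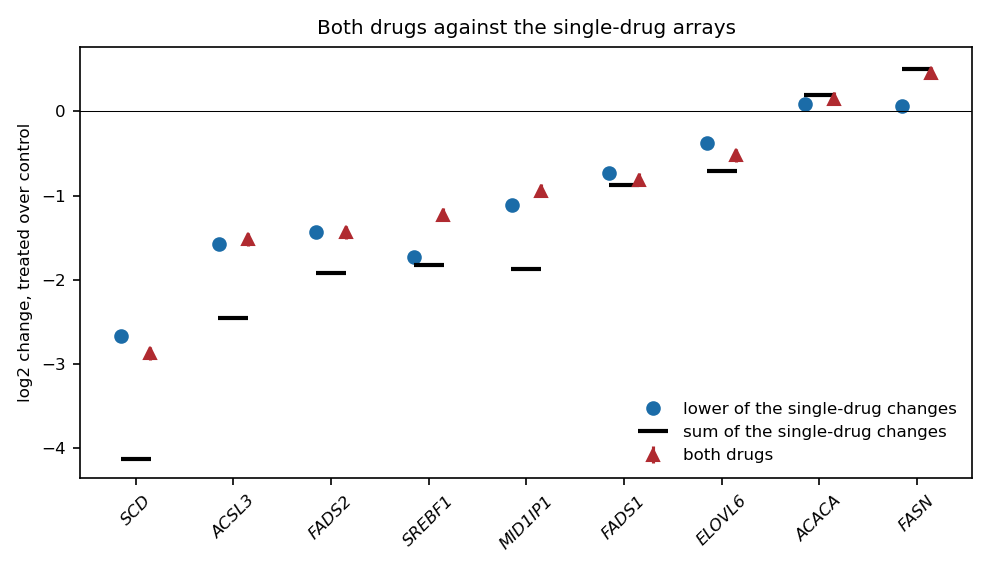
Log2 change with both drugs (triangles) beside the lower of the single-drug changes (circles) and their sum (bars) for 9 members. SCD, at its reverse-strand probe, lies at -2.87 with both drugs, close to -2.66 and above the sum of -4.12.

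The decreases with both drugs were smaller than the sum of the single-drug log2 changes for the members that fell, at their brightest probes. For SCD the sum was -4.12, and the measured change was 1.25 above it. ACSL3 and MID1IP1 were each 0.93 above their sums, SREBF1 0.60 and FADS2 0.48, with an SD of 0.13 from the spread of spots. FADS1 was 0.06 above its sum, within that SD, but its other probe was 0.66 above. The other SREBF1 probe was 0.05 above its sum, within that SD. FASN and ACACA, which did not fall, were 0.04 and 0.05 below theirs, also within it, and the other ACACA probe was 0.27 above.

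A pair of member probes lay in the dim band and is described apart. ACLY had its only probe there, at column 5. Its control signals were 614 on the decitabine-labelled array and 1681 and 1625 on the others, and its treated signals were 1802, 1560 and 1727. The treated channels were alike, and the control channel of the decitabine-labelled array had 37.2% of the level on the other arrays. The changes of ACLY were 1.55, -0.11 and 0.09. Set against the mean control of the other arrays, the treated signal on the decitabine-labelled array gave 0.12 (log2), which compares signals between arrays. The ACSL3 probe A_24_P37319, also at column 5, changed by 0.45, -0.40 and -0.83. Its control signals were 297, 655 and 694, so the low control was again on the decitabine-labelled array, and the same comparison between arrays gave -0.73.

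**Figure D4:**
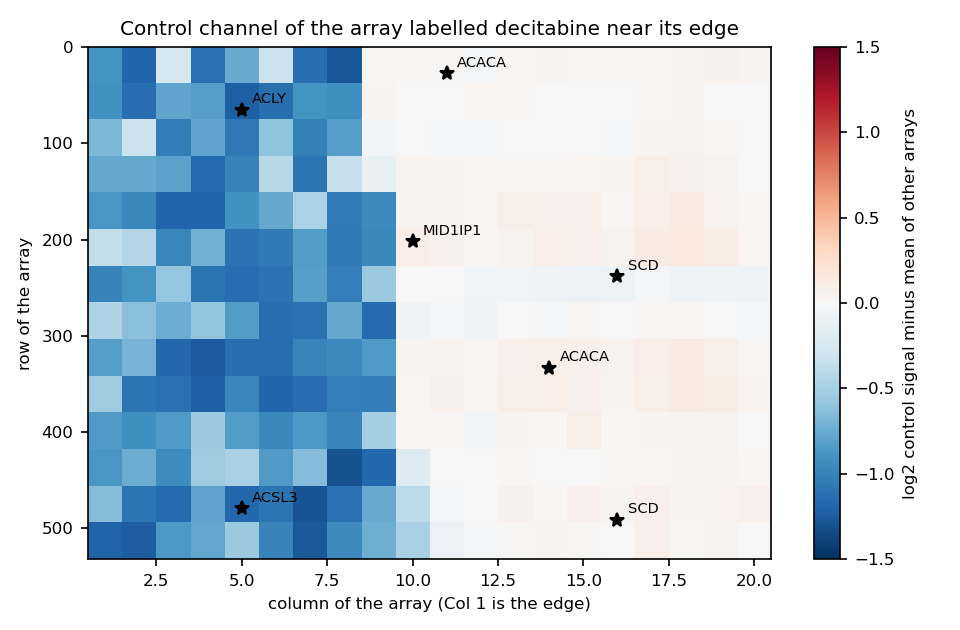
Control signal of the decitabine-labelled array minus the mean of the other arrays (log2, colour) by array column and row, with the member probes at columns up to 20 as stars. ACLY and 1 ACSL3 probe lie in the band of low control signal, and MID1IP1 lies beside it.

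The other genes of fatty acid synthesis came from a list without the members. On the decitabine-labelled array, where 6.8% of all genes fell and 6.52% rose, 5 of 24 tested fell and 2 rose. On the carboplatin-labelled array 1 of 26 fell and 0 rose, against 1.82% and 3.64% of all. With both drugs 4 of 24 fell and 1 rose, against 7.84% and 9.77%. The list medians were 0.01, -0.09 and 0.02. DBI, the acyl-CoA binding protein, changed by -0.82, -0.34 and -1.04. TECR, the reductase of the last elongation step, changed by -0.91, 0.02 and -0.67. ACSS2, which makes acetyl-CoA from acetate, changed by -0.80, -0.17 and -0.83, and its other probe by -0.26, 0.18 and -0.42. ACSL5, a relative of ACSL3, fell on all 3 arrays, by 0.72, 0.61 and 0.75 on the log2 scale. ELOVL3, another elongase, changed by 0.70, 0.55 and 0.70. The change of MECR, a reductase of mitochondrial fatty acid synthesis, was 1.94, 0.21 and 0.46. Its probe lies at column 10 and row 447, where the band reaches further in. For the 96 spots of that column in the last rows, control signals were 0.42 lower than on the other arrays, and that of MECR was 406 against 1048 and 1113. Set against the mean control of the other arrays, its treated signal gave 0.53, which is under 1.5-fold, and without MECR 1 of 23 genes rose on the decitabine-labelled array.

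Among regulators of lipogenesis 1 of 27 fell and 4 rose on the decitabine-labelled array, against 6.8% and 6.52% of all genes. On the carboplatin-labelled array 0 fell and 1 rose, against 1.82% and 3.64%. With both drugs 2 fell and 3 rose, against 7.84% and 9.77%. INSIG1, which retains the SREBP precursor in the endoplasmic reticulum and is itself a target of SREBP, changed by -1.43, -0.49 and -1.59. Its values lie close to those of FADS2. FBXW7, the ubiquitin ligase subunit that marks nuclear SREBP for degradation, changed by 1.40, 0.10 and 1.24, and its other probe by 1.17, 0.13 and 0.96. NFYB, a subunit of the CCAAT-binding factor, changed by -0.50, 0.00 and -0.67, but its other probes gave -0.68 and 0.07 on the decitabine-labelled array. STK11, the kinase upstream of AMPK, changed by 0.60, 0.59 and 0.83. The AMPK subunit gene PRKAB1 changed by 0.65, -0.06 and 0.30, and PNPLA3, a lipid droplet protein gene, by 0.31, 0.24 and 0.73. SREBF2, the paralog of SREBF1, passed 1.5-fold on no array, with -0.38, 0.24 and -0.35.

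**Figure D5:**
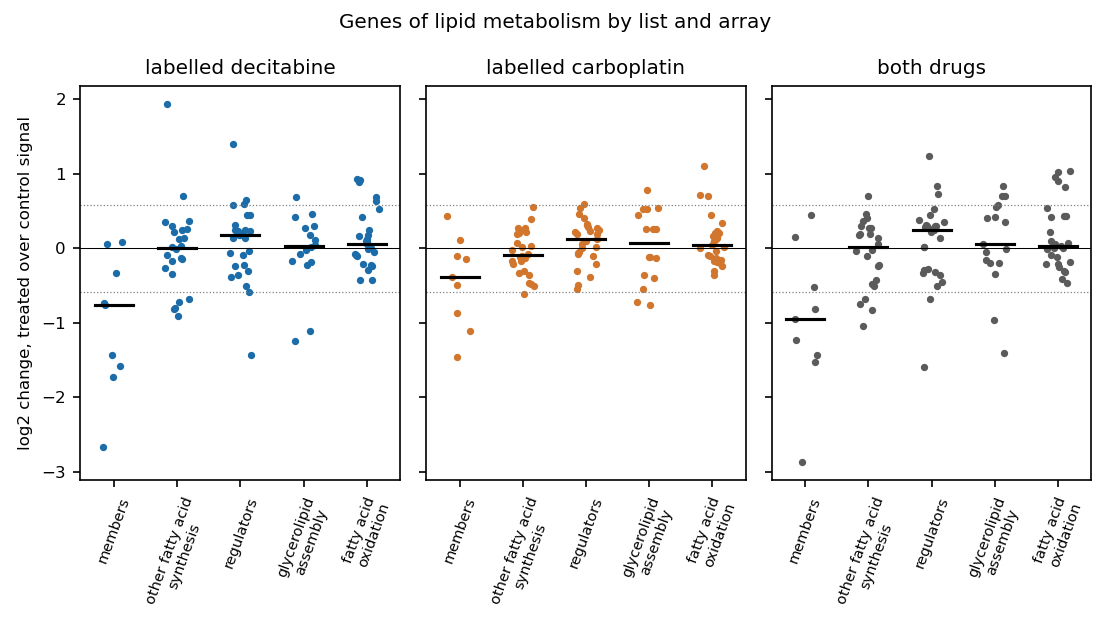
Log2 change of the genes of each list on the 3 arrays, 1 point per tested gene outside the dim band, with the list median as a bar and 1.5-fold as dotted lines. The member median lies at -0.76, -0.38 and -0.94, and the medians of the other 4 lists shown lie between -0.09 and 0.25.

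In glycerolipid assembly, which uses the fatty acids, 2 of 16 genes fell and 1 rose on the decitabine-labelled array. On the carboplatin-labelled array 2 of 16 fell and 1 rose, and with both drugs 2 of 17 fell and 4 rose. The shares over all genes were 6.8%, 1.82% and 7.84% that fell and 6.52%, 3.64% and 9.77% that rose. AGPAT4, an acyltransferase of lysophosphatidic acid, changed by -1.25, -0.76 and -1.41. Of its other probes, 1 gave -0.01, 0 and -0.17 and 1 gave -0.88, -0.24 and -1.01. On the carboplatin-labelled array neither of these passed 1.5-fold. LPCAT2, an acyltransferase of lysophosphatidylcholine, changed by -1.11, -0.72 and -0.96, while its other probe stayed within 1.5-fold at -0.38, -0.10 and -0.24. DGAT1, which makes triglyceride, changed by 0.18, 0.45 and 0.83. GPAT4, GPAT3 and LPCAT1 had largest changes of 0.78, 0.68 and 0.70, on the carboplatin-labelled, decitabine-labelled and combination arrays.

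In fatty acid oxidation 0 of 27 genes fell on any array, where 6.8%, 1.82% and 7.84% of all genes fell. On the 3 arrays 5, 3 and 5 rose, against 6.52%, 3.64% and 9.77% of all genes. CPT1A, which carries long-chain fatty acids into the mitochondrial pathway, changed by 0.91, 0.34 and 1.03. The carrier gene SLC25A20 changed by 0.94, 0.02 and 0.90. The dehydrogenase gene ACADVL and the isomerase gene ECH1 changed by 0.68, 0.10 and 0.96 and by 0.89, 0.45 and 1.03. The other probes of CPT1A and ECH1 gave 0.70 and 0.49 on the decitabine-labelled array. CPT1C, a brain isoform of CPT1A, had another order, with -0.09, 1.1 and 0.82, and ACADS changed by 0.42, 0.72 and 0.43. IDH1, LPCAT3 and ACAA2 of these lists had probes only inside the dim band and are not counted.

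The genes whose changes lay nearest to those of SCD at its reverse-strand probe, by Euclidean distance over the 3 arrays among 12604 genes, are in none of the lists used here. MACROD2, which removes ADP-ribose from proteins, was the nearest at a distance of 0.90, with changes of -2.47, -0.58 and -2.96. CLRN3 followed at 0.98, PRR15L at 1.01, FGFBP1, a carrier of fibroblast growth factors, at 1.09 and the collagen gene COL6A5, named COL29A1 in the files, at 1.09. On the carboplatin-labelled array COL6A5 was at -1.28, between the reverse-strand SCD probe and the 3 in mRNA orientation.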

How the data were processed

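Per the file headers, the authors scanned the arrays and extracted spot intensities with Agilent Feature Extraction 9.5.3.1, while the submitters' processing notes name 8.5.1.1, limma and R 3.0.2. Whole genome arrays (1 per treatment, Cy5 control, Cy3 treated) gave mean signal and local background intensities for 43376 gene spots and 41000 probes each. The deposited series table holds the authors' loess-normalised log2 values, whose direction was found by their correlation with the treated over control ratios (r across probes 0.87, 0.84 and 0.94). It was used as an alternative.

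From the scanner intensities, background was corrected by normexp (offset 50), ratios were loess-normalised within each array with control and outlier spots left out, and channel signals were scaled between arrays (Aquantile), in limma 3.58.1 under R 4.3.3. Probe names were updated through RefSeq, and 29381 probes had 1 gene. Each gene is represented by its brightest probe outside columns 1 to 9, and 17453 genes had one. A gene was tested on an array where 1 channel was well above background. With 1 sample per group no p-value was computed, and a change means at least 1.5-fold. The code was tested on simulated data. Named genes are all member probes, up to 6 genes per list past 1.5-fold on an array by largest change, and the 5 nearest to SCD. SREBF2 lies outside that rule and was chosen after its values were seen. The members, gene lists and rules were chosen with earlier results of these data known. The paper's text also gives carboplatin at other concentrations, and the labels' dose is used. Control channels of pairs of arrays were 1.5-fold or more apart for 58, 68 and 33 of 12605 genes. The SD of their log2 differences was 0.15 for decitabine and carboplatin by label. It was 0.13 for decitabine and both drugs and 0.12 for carboplatin and both drugs. The spot SD does not include this spread.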

Additional observations from a re-analysis of the deposited data

Results flagged for a closer look

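The SREBF1 probe A_24_P390784 moved in opposite directions between treatments, by more than the spread of repeated spots each time. Its log2 change was -1.08 on the decitabine-labelled array and -0.64 on the combination array, and 0.39 on the carboplatin-labelled array. The difference between treatments was not tested, as each had 1 array. The brighter SREBF1 probe was at -0.10 on the carboplatin-labelled array.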

How the results depend on the processing

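No paired analysis was possible because each treatment had 1 array, and for the same reason no replicate could be left out. Among 11 alternatives, SCD, ACSL3, SREBF1, FADS2 and FADS1 fell at least 1.5-fold under every one on the decitabine-labelled and combination arrays, and so did SCD and ACSL3 on the carboplatin-labelled array. MID1IP1 did so on all 3 arrays under the 10 alternatives that keep its probe. The SCD change ranged from -3.23 to -2.36, from -1.99 to -1.06 and from -3.35 to -2.38. The median change of the members on the decitabine-labelled array was -1.31 with the scanner's processed signals, -0.93 with a normexp offset of 0, -1.29 with median centring and -1.07 without columns 1 to 11. On the combination array it was -1.26, -1.06 and -1.38 under the first 3 of these, and -1.12 in the deposited values. On the carboplatin-labelled array it was -0.81 with median centring, where 6 members and 23.8% of all genes fell, and -0.27 without columns 1 to 11. On the decitabine-labelled array the median was the MID1IP1 value in the main setting, with the processed signals and with median centring. There MID1IP1 was at -0.76, -1.31 and -1.29. With median centring the median of all genes also moved, to -0.42, -0.32 and -0.31 on the 3 arrays. The cause of these moves was not tested, except that leaving out columns 10 and 11 removes MID1IP1 and so changes the genes counted. That alternative, and the use of the brightest SCD probe in mRNA orientation, were chosen after seeing the data. With the latter, SCD changed by -2.63, -1.15 and -2.55, of which the carboplatin-labelled and combination values moved by more than the spot SD. Single spots and 1 array per treatment limit the precision.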
